A study of Mus musculus with 101 samples.

Results

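The mouse genome encodes a large set of chemokines and chemokine receptors, and 63 of the 24475 genes in the deposited count tables belong to it by symbol: the numbered Ccl and Cxcl ligands and Ccr and Cxcr receptors, Cx3cl1, Cx3cr1, Xcl1, Xcr1 and the atypical receptors Ackr1 to Ackr4. They were picked by a rule on names that uses no measured value, but the rule was set with earlier results of these data known. Bulk mRNA-seq was done on 101 libraries of subcutaneous and epididymal fat from male mice of the C57BL/6NTac strain, in 2 experiments that ask what activin E, the product of the liver gene Inhbe, does to fat. In the overexpression experiment, wild-type mice on chow carried an AAV8 vector with mouse Inhbe (mInhbe) or with GFP, expressed in the liver, and each depot had 10 mInhbe and 10 GFP libraries. In the knockout experiment, Inhbe knockout (KO) and wild-type (WT) mice ate high fat diet (HFD) or chow. Subcutaneous fat had 8 KO HFD, 7 WT HFD, 7 KO chow and 8 WT chow libraries, and epididymal fat had 8, 8, 7 and 8 of the same groups. The labels state no age, no time on diet and no cell type specificity of the knockout. Since whole fat was sequenced, fewer cells of a type and less RNA per cell cannot be told apart in any value given here.

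Chemokines are small secreted proteins that set up gradients along which leukocytes crawl, and they signal through G protein-coupled receptors on those cells. Inflammatory chemokines are switched on where tissue is stressed and draw monocytes, neutrophils and eosinophils, whereas homeostatic ones place lymphocytes and dendritic cells within lymph nodes. Atypical receptors bind the same ligands without G protein signalling and take them up. In the fat of obese mice the pathway is best known for the recruitment of macrophage precursors by Ccl2 through its receptor Ccr2. Lymph nodes lie within some mouse fat pads, and their cells express many homing receptors.

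Promoter sequence, the 250 bases before the start that the RefSeq promoter table (GRCm38.p6) gives, was available as 54 entries for 47 of the 63 members. For Ccr2 and Cxcl14 that start, and the bases printed, lie inside the annotated span of the gene. Of the members that changed with genotype or diet in epididymal fat, the neighbours Cxcl1 and Cxcl2 are shown for their kappa B motifs, Ccl9 for TATA boxes, Cxcl14 for an interferon response motif and Ccr2 as a promoter in which none of the motifs searched was found. Capitals mark the motif matches, on either strand.
Cxcl1 promoter, chr5:90890995-90891244, plus strand: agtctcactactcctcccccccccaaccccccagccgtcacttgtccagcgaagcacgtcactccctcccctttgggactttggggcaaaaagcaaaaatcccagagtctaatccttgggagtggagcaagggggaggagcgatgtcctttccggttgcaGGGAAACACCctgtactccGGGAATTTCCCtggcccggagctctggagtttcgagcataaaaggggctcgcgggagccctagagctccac
Cxcl2 promoter, chr5:90903649-90903898, plus strand: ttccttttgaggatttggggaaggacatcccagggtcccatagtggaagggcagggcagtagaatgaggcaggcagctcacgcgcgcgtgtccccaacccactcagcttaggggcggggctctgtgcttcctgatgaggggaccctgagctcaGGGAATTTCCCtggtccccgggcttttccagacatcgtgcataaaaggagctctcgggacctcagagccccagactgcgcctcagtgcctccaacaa
Ccl9 promoter, chr11:83578637-83578886, minus strand: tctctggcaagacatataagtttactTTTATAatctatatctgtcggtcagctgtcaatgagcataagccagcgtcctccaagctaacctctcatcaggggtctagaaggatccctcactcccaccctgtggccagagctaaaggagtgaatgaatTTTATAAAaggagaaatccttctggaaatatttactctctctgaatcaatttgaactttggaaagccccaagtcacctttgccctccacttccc
Cxcl14 promoter, chr13:56296552-56296801, minus strand: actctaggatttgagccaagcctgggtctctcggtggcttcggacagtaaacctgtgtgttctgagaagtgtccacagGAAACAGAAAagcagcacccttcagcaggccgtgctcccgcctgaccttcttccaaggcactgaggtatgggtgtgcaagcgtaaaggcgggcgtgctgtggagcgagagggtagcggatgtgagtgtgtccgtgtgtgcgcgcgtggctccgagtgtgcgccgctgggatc
Ccr2 promoter, chr9:124101933-124102182, plus strand: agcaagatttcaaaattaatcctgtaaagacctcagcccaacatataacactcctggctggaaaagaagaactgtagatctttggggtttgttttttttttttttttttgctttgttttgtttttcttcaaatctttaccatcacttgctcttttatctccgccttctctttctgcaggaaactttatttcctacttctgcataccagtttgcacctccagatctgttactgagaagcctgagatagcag

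The kappa B motif, spelled GGGA, then 4 bases of any kind, then CC, was present in 20 of the 54 member entries (37.0%), against 17.6% of all 32851 RefSeq promoters of the same length. The TATA box, TATAAA, was in 27.8% of the member entries and 12.4% of all promoters, the PU.1 core GAGGAAG in 14.8% and 10.6%, and the interferon response motif (GAAA, 2 bases of any kind, GAAA) in 5.56% and 2.98%. In Cxcl1 the kappa B matches ran from position -90 to -81 and, as overlapping matches on both strands, from -71 to -61, where -1 is the base before the start, and in Cxcl2 from -97 to -87. These are matches of letters, not measured binding sites.

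The libraries held 12970509 to 20170746 counts, so that 3 counts, taken as the floor, amounted to 0.149 to 0.231 CPM (counts scaled to a library total of 1000000). In both depots Inhbe itself was found in all mInhbe libraries, at 2.42 to 46.0 CPM in subcutaneous and 0.240 to 15.8 CPM in epididymal fat, and was at 0 in all GFP libraries. It was at or near 0 in KO and WT fat alike (at most 0.334 CPM), so the fat libraries do not check the knockout. The 6 adipocyte markers examined summed to 4736 to 16513 CPM. Some libraries differed from others of their group. WT chow subcutaneous 1 and WT HFD subcutaneous 1, 2 and 4 held almost no lymph node transcripts. WT chow subcutaneous 6 and 7 were rich in Ccl2 and Ccr2. WT HFD epididymal 4 and 5 held 814 and 3261 CPM of the liver gene Alb, and epididymis transcripts such as Crisp1 ranged from 0 to 4354 CPM in the epididymal libraries of the knockout experiment. Values without these libraries are given beside several of the results below.

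Per kilobase of exon, the scale on which genes can be compared with each other, the members with the highest means differed between depots and diets (map of levels by role and group). In WT chow subcutaneous fat Ccl21a, a lymph node chemokine that attracts Ccr7-bearing cells, had the highest mean, 200 ± 87.2 CPM per kb (SD, n = 8). Ccl6 at 97.0 ± 75.2 and Ccl8 at 87.0 ± 101 followed, and the spreads of Ccl21a, Ccl6 and Ccl8 overlapped. In WT chow epididymal fat the order was Ccl6 (120 ± 36.5), Ccl21a (86.2 ± 27.7), the eosinophil attractant Ccl11 (40.3 ± 8.36) and Ccl9 (36.8 ± 12.0 CPM per kb, n = 8). Ccl6 and Ccl21a did not differ beyond their spread, nor did Ccl11 and Ccl9. In WT HFD epididymal fat Ccl6, at 281 ± 52.4, and Ccl9, at 175 ± 23.5 CPM per kb (n = 8), stood above Ccl11 (50.4 ± 9.29), Ccl2 (45.1 ± 11.7) and Ccl21a (39.6 ± 21.5), the last 3 within their spread of each other. Ccl6 and Ccl9 are rodent chemokines that bind Ccr1.

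**Figure D1:**
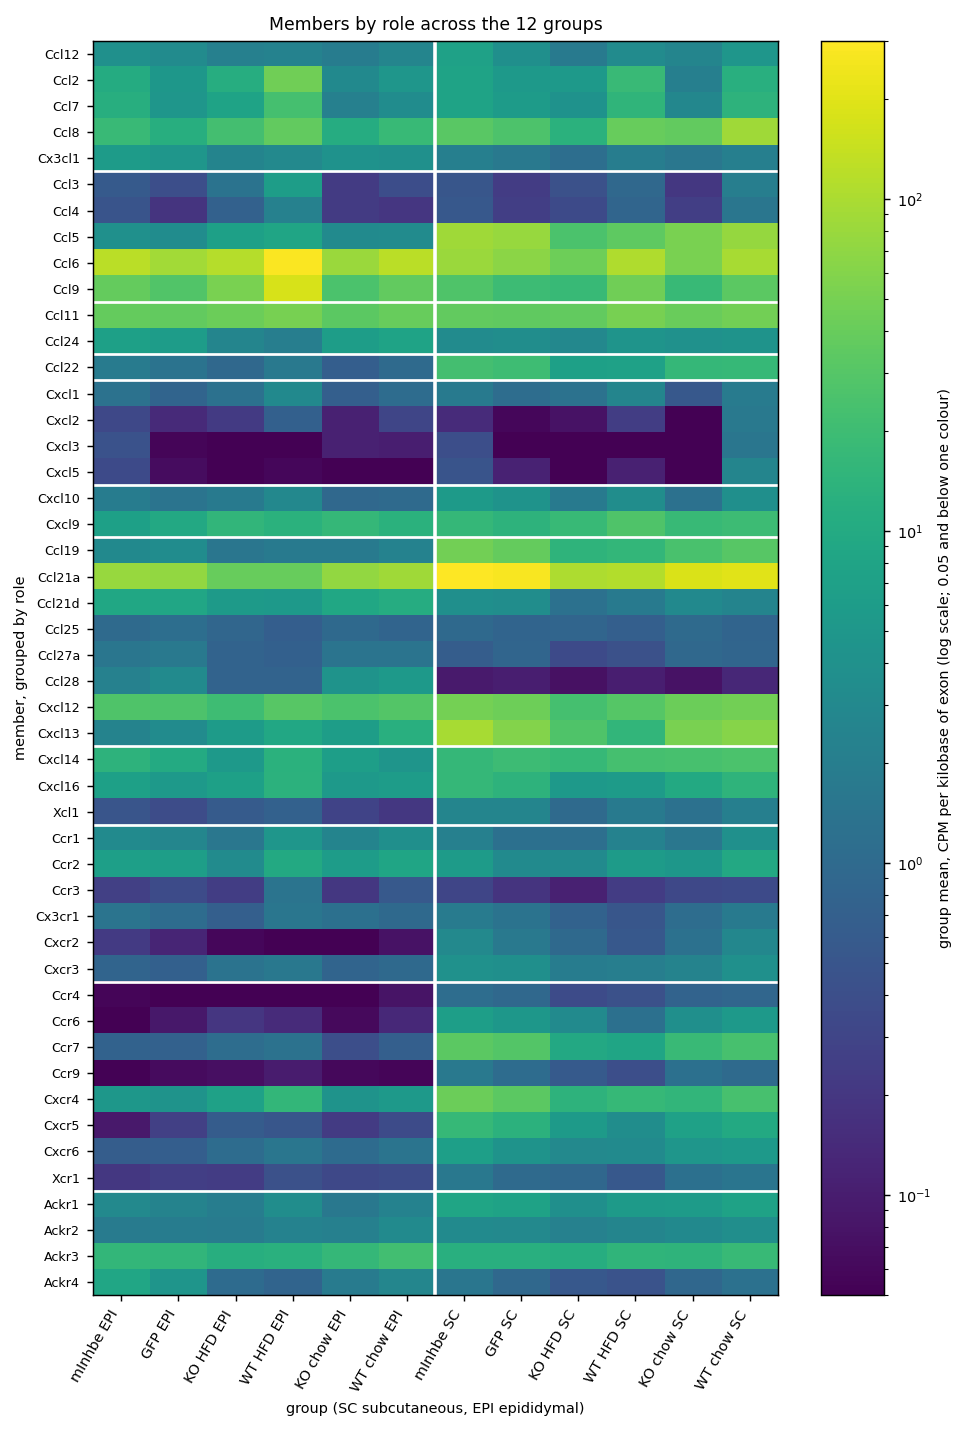
Group mean level of 48 members (rows, grouped by role, white lines between roles) in the 12 groups (columns, epididymal left of subcutaneous), in CPM per kilobase of exon on a logarithmic colour scale from dark to bright. Ccl6, Ccl9 and Ccl2 are brightest in WT HFD epididymal fat (281, 175 and 45.1 CPM per kb), and homing receptors such as Ccr7 and Cxcr5 are dark in epididymal and bright in subcutaneous fat.

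Summed over all 63 members, epididymal fat held 818 ± 151 CPM (660 to 1073, n = 8) in KO HFD mice, against 1742 ± 168 CPM (1579 to 2037, n = 8) in WT HFD mice, with no overlap. On chow the sums were 780 ± 73.9 CPM in KO (n = 7) and 977 ± 101 CPM in WT epididymal fat (n = 8). Ccl6 and Ccl9 made up much of the WT HFD sum, so the sums do not speak for every member. Ccl6 had 281 CPM per kb in WT HFD and 112 in KO HFD epididymal fat, and Ccl9 had 175 and 52.5. Not all members are expressed. Ccl26 was at 0 in every library, and Cxcl11, Cxcl15, Cxcl17, Ccl1, Ccl20, Ccl21b, Ccl27b, Ccr1l1 and Cxcr1 had a mean below 0.5 CPM in all 12 groups. The near-identical genes Ccl21c and Ccl21d are uncertain, because the counting could split reads between such copies.

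Loss of Inhbe on HFD was marked in epididymal fat by lower levels of many members, most but not all of them inflammatory. Of 43 members with enough counts to test, 19 were lower and 1 was higher in KO HFD than in WT HFD fat (adjusted p under 0.05 by edgeR's quasi-likelihood test with Benjamini-Hochberg adjustment over all genes), where 37.2% of all 15042 genes tested were called, 20.2% lower and 17% higher. The fitted log2 difference had a median of -0.45 over the members and 0.01 over all genes. By role, 4 of the 5 inflammatory ligands made largely by macrophages and lymphocytes (Ccl3, Ccl4, Ccl5, Ccl6 and Ccl9), 5 of 6 tested receptors of inflammation, 2 of 2 tested neutrophil attractants and 2 of 5 monocyte attractants fell. Among lymphoid homing ligands 1 of 9 fell, and among atypical receptors 1 of 4.

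Ccr2, the Ccl2 receptor that carries monocytes into tissue, had 10.3, 21.0 and 38.5 CPM (lowest, median and highest) in KO HFD and 28.4, 72.7 and 81.7 CPM in WT HFD fat, and the log2 difference was -1.44 ± 0.22 (SE, adjusted p = 3.16e-06). The groups overlapped only through WT HFD epididymal 3 at 28.4 CPM, the other 7 WT libraries lying at 56.1 CPM or more. Ccr1, a receptor of monocytes and neutrophils, had 3.78 to 5.07 CPM in KO HFD and 7.77 to 19.7 CPM in WT HFD fat, with no overlap (-1.41 ± 0.21, adjusted p = 3.9e-06). Ccr3, the eosinophil receptor for Ccl11 and Ccl24, had 0.231, 0.714 and 1.71 CPM in KO HFD and 3.00, 4.48 and 7.71 CPM in WT HFD fat, again without overlap, and showed the lowest log2 difference among the called members (-2.35 ± 0.45). The fractalkine receptor Cx3cr1 fell by 0.95 on the log2 scale, with overlapping groups.

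Among the ligands, Ccl2 had 5.27, 8.51 and 14.7 CPM in KO HFD fat, against 23.8, 35.4 and 50.8 CPM in WT HFD fat (-1.81 ± 0.27, adjusted p = 3.29e-06). Its neighbour Ccl7, which also binds Ccr2, had 2.74, 5.26 and 13.0 CPM in KO HFD and 13.6, 19.4 and 25.8 CPM in WT HFD fat (-1.39 ± 0.30). For both genes all KO libraries were below all WT libraries. Ccl9 had 89.4, 164 and 234 CPM in KO HFD and 461, 502 and 675 CPM in WT HFD fat (-1.53 ± 0.23, adjusted p = 3.44e-06), and Ccl6 had 95.4, 155 and 273 CPM in KO HFD and 324, 400 and 524 CPM in WT HFD fat (-1.11 ± 0.24). Ccl3, a macrophage product that binds Ccr1, was low throughout, with 0.486, 0.884 and 2.57 CPM in KO HFD and 2.95, 5.00 and 6.53 CPM in WT HFD fat (-2.05 ± 0.33, adjusted p = 9.91e-06). These 3 also separated the genotypes completely. Ccl4, which overlaps Ccl3 in the genome and whose reads may be shared with it because the use of strand in counting is not stated, fell by 1.45 on the log2 scale.

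The neutrophil attractants Cxcl1 and Cxcl2, whose promoters share the kappa B motif shown above, fell by 1.12 and 1.49 on the log2 scale. Both were scarce, at medians of 1.01 and 0.381 CPM in KO HFD against 2.89 and 1.16 CPM in WT HFD fat. Cxcl14, a ligand made mainly by stromal and epithelial cells, had 3.77, 10.9 and 13.8 CPM in KO HFD and 14.9, 23.3 and 35.8 CPM in WT HFD fat (-1.09 ± 0.36, adjusted p = 0.0187, no overlap). Cxcl16, the ligand of Cxcr6 and a scavenger receptor of macrophages, fell by 0.74 ± 0.14 on the log2 scale. Cxcl12, the stromal ligand that retains Cxcr4-bearing cells, changed least among the called members, with 109, 147 and 211 CPM in KO HFD and 186, 218 and 258 CPM in WT HFD fat (-0.44 ± 0.10, adjusted p = 0.00127), and its receptor Cxcr4 fell by 0.97 ± 0.25.

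Lymphoid homing ligands gave few calls. Cxcl13, the B cell attractant, had 2.92, 4.84 and 22.6 CPM in KO HFD and 1.87, 10.7 and 21.9 CPM in WT HFD fat (-0.45 ± 0.55, adjusted p = 0.564). Ccl25, a gut and thymus homing ligand, was the only member called higher, with 1.00, 1.17 and 2.24 CPM in KO HFD against 0.661, 1.04 and 1.40 CPM in WT HFD fat (0.57 ± 0.21, adjusted p = 0.0352). Only 5 of 8 KO libraries were above the WT mean, and Ccl25 missed the threshold without WT HFD epididymal 4 and 5 (adjusted p = 0.0996). Ackr1, which holds chemokines on venules, fell by 0.65 ± 0.20 on the log2 scale (adjusted p = 0.00876).

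**Figure D2:**
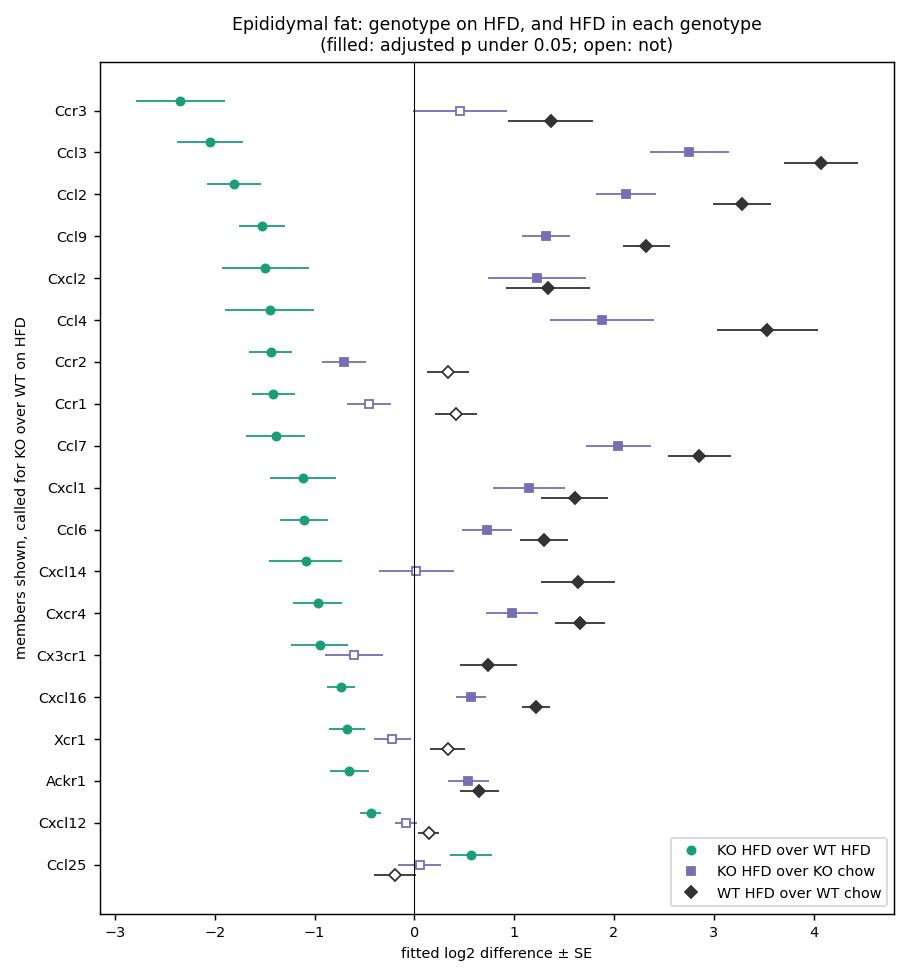
Fitted log2 difference ± SE in epididymal fat for 19 of the members called between KO HFD and WT HFD (circles), with the HFD over chow differences of the same members in KO (squares) and WT (diamonds). Filled symbols have an adjusted p under 0.05. All circles but that of Ccl25 lie left of 0, from -2.35 for Ccr3 to -0.44 for Cxcl12, and most diamonds lie right of 0.

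HFD was followed by higher levels of many ligands and receptors in both genotypes. In WT epididymal fat 22 of the 43 tested members rose and 8 fell on HFD over chow (of all genes 54.1% were called, 28.9% higher and 25.2% lower), and the member median was 0.56 against -0.02 over all genes. Without WT HFD epididymal 4 and 5, 20 rose and 6 fell, Ccl11, Ccl21c, Ccl21d and Cxcr3 no longer being called. Ccl3, Ccl4, Ccl5, Ccl6 and Ccl9 all rose, together with 3 of 5 monocyte attractants and 4 of 6 tested receptors of inflammation. In KO epididymal fat, which shares no library with the WT comparison, 19 rose and 3 fell (of all genes 38.7% were called, 24.7% higher and 13.9% lower), with a median of 0.42 against 0.00. All 19 members that rose in KO were among the 22 that rose in WT (19 of 19 and 19 of 22). The matching overlap over all genes is not given here, so this one is not read as particular to the members. The WT HFD and KO HFD libraries of these comparisons are those of the KO over WT comparison above, so the values of the 3 comparisons are not independent (plot of the 3 log2 differences).

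Ccl2 rose by 3.28 ± 0.29 in WT and 2.12 ± 0.30 in KO fat, where the chow levels were 1.63, 3.54 and 7.24 CPM in WT and 1.26, 2.53 and 4.25 CPM in KO mice. In both genotypes the HFD libraries were all above the chow libraries for Ccl2 and Ccl3. Ccl3 rose by 4.08 ± 0.37 in WT and 2.76 ± 0.40 in KO fat, and its chow medians, 0.296 CPM in WT and 0.137 CPM in KO mice, were near the floor of 3 counts. Ccl9 rose by 2.32 ± 0.24 in WT and 1.31 ± 0.24 in KO fat, and Ccl7 by 2.85 ± 0.31 in WT and 2.04 ± 0.33 in KO fat.

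Ccr2 did not share the rise of its ligand. In WT fat it had a median of 72.7 CPM on HFD and 40.9, 51.5 and 86.7 CPM on chow (0.33 ± 0.21, adjusted p = 0.179). In KO fat it was lower on HFD than on chow, where it had 29.9, 45.3 and 48.5 CPM (-0.71 ± 0.22, adjusted p = 0.0113). Cxcl14 rose by 1.63 ± 0.37 in WT fat (adjusted p = 0.000468), whereas in KO fat the difference was 0.02 ± 0.38 (adjusted p = 0.978). Ccl11 was called higher by 0.41 ± 0.16 in WT and 0.54 ± 0.17 in KO fat, but not without WT HFD epididymal 4 and 5 in WT (0.41 ± 0.18, adjusted p = 0.0696) or with the epididymis score added in KO (0.39 ± 0.17, adjusted p = 0.0887). Its levels stayed within 28.3 to 70.9 CPM over all epididymal libraries of the knockout experiment.

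**Figure D3:**
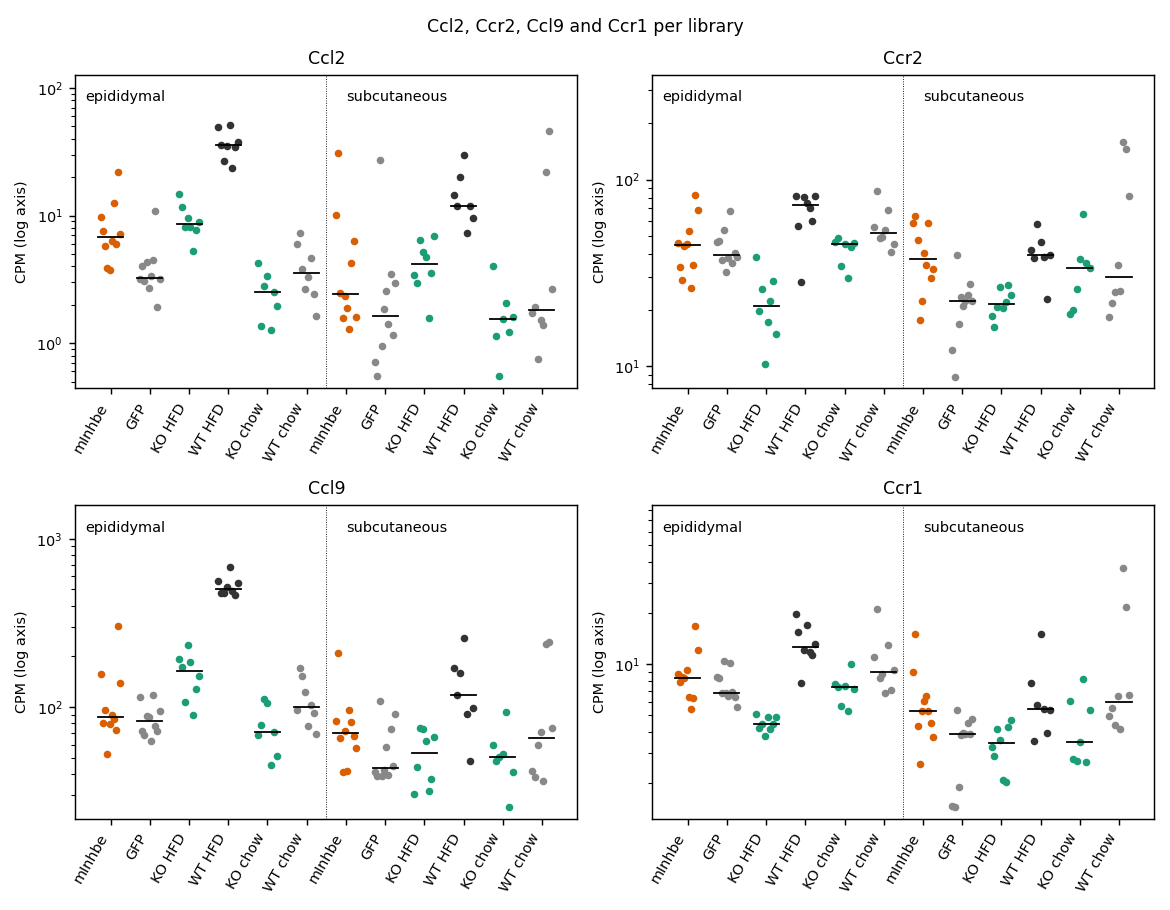
CPM per library on a logarithmic axis for Ccl2, Ccr2, Ccl9 and Ccr1 in the 12 groups, epididymal left of subcutaneous, with the group median as a line. WT HFD epididymal fat has the highest median for Ccl2 (libraries 23.8 to 50.8 CPM) and Ccl9, KO HFD epididymal fat is lowest for Ccr2 among the epididymal groups (median 21.0 CPM), and WT chow subcutaneous fat has a pair of high libraries for Ccl2.

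The difference in diet response between the genotypes was tested as an interaction, KO response minus WT response. In epididymal fat 8 members had a less positive or more negative response in KO, and none the reverse, where 16.5% of all genes were called, 8.7% in that direction and 7.83% in the other. Among them were Ccr2 (-1.04 ± 0.30, adjusted p = 0.0159), Cx3cr1 (-1.34 ± 0.41, adjusted p = 0.0199), Cxcl16 (-0.65 ± 0.20), Ccl9, Cxcl14 (-1.62 ± 0.52), Ccl2 (-1.16 ± 0.40, adjusted p = 0.0417) and Ccr1. Without WT HFD epididymal 4 and 5, the libraries with liver RNA, 3 members stayed called, among them Ccr2 and Cx3cr1. Ccr3 was called for WT and not for KO in the diet comparisons, but its interaction did not pass (-0.91 ± 0.63, adjusted p = 0.391). TMM scaling set the fitted log2 differences above plain CPM ratios by 0.18 for KO over WT on HFD, by 0.24 for HFD over chow in KO and by 0.15 for the interaction in epididymal fat.

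Falls on HFD touched other members. Ccl24, an eosinophil attractant, had 1.73, 2.66 and 4.12 CPM in WT HFD and 5.11, 9.70 and 16.2 CPM in WT chow epididymal fat, without overlap (-1.80 ± 0.25, adjusted p = 5.62e-07), and fell by 1.01 ± 0.25 on the log2 scale in KO fat. Ackr4, which removes Ccl19, Ccl21 and Ccl25, had 0.549, 1.62 and 6.46 CPM in WT HFD and 4.37, 6.61 and 14.1 CPM in WT chow fat (-1.65 ± 0.39, adjusted p = 0.000702). Acad11, which spans Ackr4 in the genome and may share reads with it, was lower in the same contrast. It had 87.3 to 118 CPM in WT HFD and 141 to 227 CPM in WT chow fat, and its part in the Ackr4 value was not tested. Ackr3, which removes Cxcl12, fell by 0.68 ± 0.17 on the log2 scale in WT fat (adjusted p = 0.000992). The skin-homing ligand Ccl27a fell by 0.90 ± 0.22, and Ccl21a by 1.03. Lymphatic endothelial genes fell as well, 4 of 6 being called lower in WT, with sums of 64.6 to 149 CPM in WT HFD and 235 to 303 CPM in WT chow fat and none at 0 in either. Their part in the Ccl21a and Ackr4 results was not tested.

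Ccl28, a mucosal epithelial chemokine, had 0.333, 1.88 and 6.84 CPM in WT HFD and 0.557, 26.1 and 33.2 CPM in WT chow epididymal fat (-2.72 ± 0.82, adjusted p = 0.00668), and fell by 2.26 ± 0.83 on the log2 scale in KO fat (adjusted p = 0.0314). The WT chow group was not uniform: libraries 2 and 4 held 0.669 and 0.557 CPM and the other 6 at least 20.0 CPM. The mesothelium list of 6 genes moved in the same direction, with summed levels of 29.7 to 168 CPM in WT HFD and 132 to 429 CPM in WT chow fat and none of its genes at 0 in either group, and its part in the Ccl28 result was not tested. With the epididymis score as a covariate Ccl28 was still called in WT (-2.71 ± 0.79) and in KO fat (-2.04 ± 0.79).

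**Figure D4:**
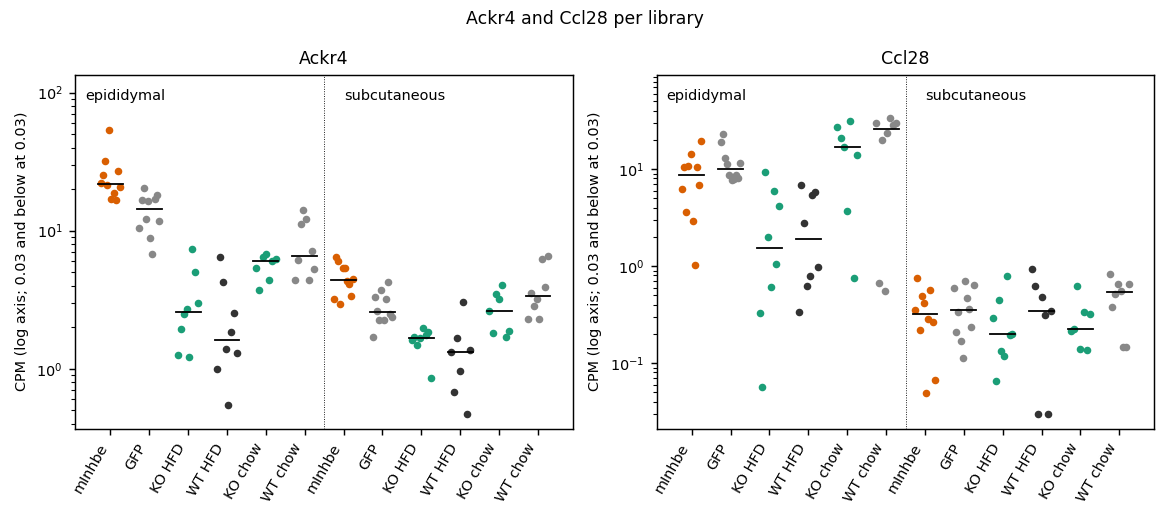
CPM per library on a logarithmic axis (values of 0.03 and below drawn at 0.03) for Ackr4 and Ccl28, epididymal left of subcutaneous, with group medians as lines. Epididymal Ackr4 is highest in the mInhbe group (16.8 to 53.3 CPM), and Ccl28 is low in subcutaneous fat in all groups and has 2 low libraries in WT chow epididymal fat.

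Markers of macrophages moved with these members. The 9 macrophage genes summed to 900 to 2013 CPM (median 1221) in KO HFD, against 3349 to 4316 CPM (median 3523) in WT HFD epididymal fat, none at 0 in either group, and 8 of 9 were lower in KO HFD. Adgre1, the macrophage surface marker F4/80, had 72.2, 120 and 201 CPM in KO HFD and 342, 377 and 472 CPM in WT HFD fat. Of 8 genes of lipid-associated macrophages 6 were lower in KO HFD and 7 rose on HFD in each genotype, and 5 of 6 mast cell genes were lower in KO HFD. Of 4 tested neutrophil genes 2 were lower, and Ly6g was at 0 in WT HFD. Of 3 tested eosinophil genes 2 were lower. The 6 adipocyte markers went the other way, with 5 higher in KO HFD. The 5 liver genes summed to 16.2, 16.9 and 55.7 CPM (lowest, median and highest) in KO HFD and 3.10, 3.70 and 4099 CPM in WT HFD fat. Both liver genes tested were called lower in KO HFD with all libraries, although the KO HFD median was the higher one, the WT HFD libraries with most liver RNA being epididymal 4 and 5. The part of these cell types in the member differences was not tested.

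Genes through which chemokine receptors signal moved with the receptors. Of 34 tested genes of this kind, none a member, 25 were lower and none higher in KO HFD than in WT HFD epididymal fat, with a median log2 difference of -0.85. The lowest p-values belonged to the adenylyl cyclase Adcy7 (-1.42 ± 0.13, mean 55.3 CPM in KO HFD and 166 CPM in WT HFD), the arrestin Arrb2 (-0.99 ± 0.11) and Dock2, which drives the actin response of leukocytes (-1.50 ± 0.16). On HFD over chow, 26 of the 34 rose and 1 fell in WT, and 18 rose and 2 fell in KO epididymal fat. Rgs1, which damps receptor signalling, rose most clearly in both, by 5.83 ± 0.36 in WT (98.3 against 1.83 CPM) and 4.03 ± 0.38 in KO fat (14.1 against 1.01 CPM). Adcy7, Arrb2 and Elmo1, the partner of Dock2, were also among 19 pathway genes with a lower diet response in KO (Elmo1, -0.96 ± 0.18).

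Many members lie in clusters. Of all genes tested in epididymal fat, 28.9% were higher on HFD in WT and 20.2% were lower in KO HFD than in WT HFD. Genes near these blocks that are not members were not counted, so the counts are not read as a result about the clusters. Ccl3, Ccl4 and Cxcl2 could pass the filter through their WT HFD levels. On chromosome 11 (GRCm38), the block from 83525778 to 83664683 holds Ccl5, Ccl9, Ccl6, Ccl3 and Ccl4. All 5 rose on HFD in WT epididymal fat, and 4 of them were lower in KO HFD than in WT HFD, Ccl5 not being called. The block from 82035577 to 82179812 on the same chromosome holds Ccl2, Ccl7, Ccl11, Ccl12, Ccl8 and Ccl1, of which 5 were tested: 4 rose on HFD in WT, and Ccl2 and Ccl7 were lower in KO HFD. On chromosome 5, from 90759298 to 90905938, lie Cxcl5, Cxcl3, Cxcl15, Cxcl1 and Cxcl2. Of these Cxcl1 and Cxcl2 were tested, and both were lower in KO HFD than in WT HFD and rose on HFD in WT.

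In subcutaneous fat the same contrast gave 4 calls. In KO HFD over WT HFD, 4 of 46 tested members were lower and none higher (of all genes 18.9% were called, 11.6% lower and 7.32% higher), with a member median of -0.22. Ccl6 had 40.8, 58.0 and 92.8 CPM in KO HFD and 103, 147 and 259 CPM in WT HFD fat, without overlap (-1.09 ± 0.32, adjusted p = 0.0169). Ccl9 had 30.5, 53.4 and 74.8 CPM in KO HFD and 47.9, 118 and 257 CPM in WT HFD fat (-1.18 ± 0.38, adjusted p = 0.0281). Cx3cl1, the membrane-bound ligand of Cx3cr1, fell by 0.60 ± 0.19 on the log2 scale, and Cxcl9, an interferon-induced ligand of Cxcr3, by 0.50 ± 0.17 (adjusted p = 0.0426). Ccl2 had 1.57, 4.15 and 6.86 CPM in KO HFD and 7.24, 12.0 and 29.6 CPM in WT HFD fat, which did not overlap, but its difference missed the threshold (-1.63 ± 0.63, adjusted p = 0.072). That fit shares its spread with the chow groups, and without WT chow subcutaneous 6 and 7 it called Ccl2 (-1.64 ± 0.33) and 9 members in all.

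The WT HFD subcutaneous libraries that lacked lymph node transcripts bear on this contrast. Without them and the other libraries that stood apart, Ccl6, Ccl9 and Cx3cl1 were not called (Ccl9 at -0.89 ± 0.47), and Cxcl9 was (-0.75 ± 0.18). Ccl5, Ccl22, Ccl21c and Ccl21d were called lower in that fit, which makes 5 in all. Lymph node genes summed to 347 to 910 CPM in KO HFD and 12.7 to 809 CPM in WT HFD fat, and macrophage genes to 453 to 591 and 731 to 1402 CPM, with 6 of 9 macrophage genes lower in KO HFD. Their part in the result was not tested. In this contrast 3 of the pathway genes were lower, with Gnai2, the G protein subunit that chemokine receptors use, at -0.67 ± 0.14 (224 CPM in KO HFD and 397 CPM in WT HFD), Ccrl2 at -0.65 ± 0.19 and Rgs1 at -1.05 ± 0.31.

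On HFD over chow in WT subcutaneous fat, 1 member rose and 10 fell (of all genes 44.1% were called, 22.6% higher and 21.5% lower). Cxcl9 rose by 0.65 ± 0.17 (48.5, 69.1 and 154 CPM on HFD against 48.2, 55.2 and 67.1 CPM on chow, overlapping). Ackr4 fell to 0.468, 1.33 and 3.03 CPM on HFD, against 2.28, 3.37 and 6.54 CPM on chow (-1.31 ± 0.28, adjusted p = 0.000412). Cx3cr1 fell by 1.56 ± 0.36 and Cxcr2, the neutrophil receptor, by 2.12 ± 0.52 on the log2 scale. Cxcl13 had 2.13, 23.2 and 31.8 CPM on HFD and 5.48, 73.0 and 107 CPM on chow (-1.78 ± 0.46, adjusted p = 0.00263), and Cxcl12 fell by 0.43 ± 0.12. Lymph node genes summed to 12.7 to 809 CPM on HFD and 10.5 to 1371 CPM on chow, with 1 of 16 lower. With the lymph node score added to the fit 6 members were called, Cxcl13 and Cxcr2 among them (-0.83 ± 0.23 and -1.22 ± 0.43), while Cx3cr1 was not (adjusted p = 0.0577). Of the pathway genes 16 fell and 2 rose, with the receptor kinase Grk3 at -1.13 ± 0.17, Dpp4, a protease that trims chemokines, at -1.19 ± 0.25 and the phospholipase Plcb2 at -1.44 ± 0.41.

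For Ccl2 this contrast depended on a pair of control libraries. Ccl2 had 7.24 to 29.6 CPM on HFD, and on chow 21.9 and 45.6 CPM in WT chow subcutaneous 6 and 7 and 0.752 to 2.64 CPM in the other 6 libraries. Ccr2 (158 and 145 CPM), Ccl9 (237 and 242 CPM) and Cxcl5 (24.6 and 7.72 CPM) were high in the same pair. With all libraries the Ccl2 difference was 0.92 ± 0.62 (adjusted p = 0.233). Without the pair, which was left out because its Ccl2 was high, it was 3.33 ± 0.40 (adjusted p = 1.96e-07), Ccl9 rose by 1.49 ± 0.32 and Ccl7 by 2.83 ± 0.44, and 7 members rose and 6 fell.

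In KO subcutaneous fat, HFD over chow gave 1 rise and 3 falls (of all genes 20.7% were called, 11.7% higher and 9.05% lower). Cxcl12 had 140, 169 and 198 CPM on HFD and 240, 291 and 426 CPM on chow, without overlap (-0.61 ± 0.12, adjusted p = 0.000294). Ccl27a fell by 1.11 ± 0.33 and Ccr3 by 1.27 on the log2 scale. Cxcl1 rose by 1.54 ± 0.56, at the threshold (adjusted p = 0.0499). The receptor kinase Grk3 was the only pathway gene called (-0.54 ± 0.16). Without the libraries that stood apart 14 members were called. The interaction of genotype and diet called none of 46 members in subcutaneous fat (2.14% of all genes called, 0.387% positive and 1.75% negative), and 4 had an unadjusted p under 0.05. Cxcr2 (2.00 ± 0.71, adjusted p = 0.149), Cx3cr1 (1.28 ± 0.50, adjusted p = 0.205) and Ackr4 (0.85 ± 0.39, adjusted p = 0.305) came closest. DESeq2 also called none. For this interaction too, the share of all genes with an unadjusted p under 0.05 is not given.

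**Figure D5:**
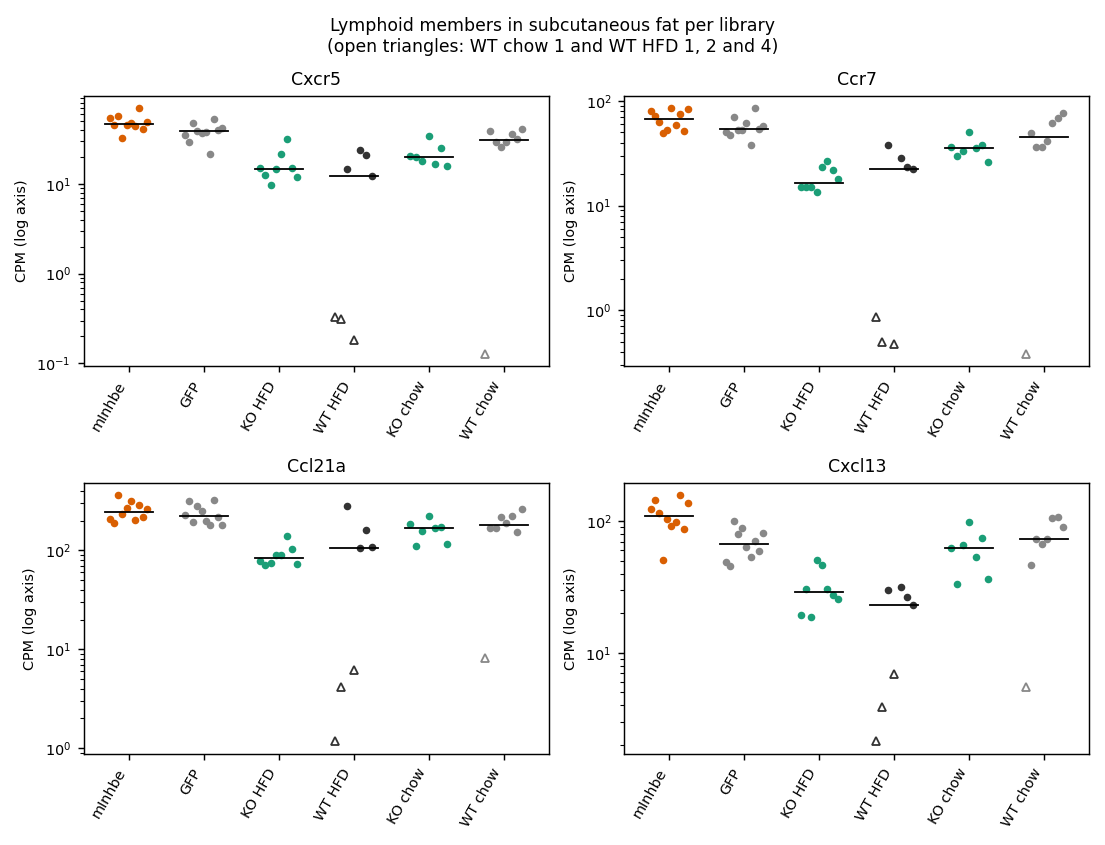
CPM per library on a logarithmic axis for Cxcr5, Ccr7, Ccl21a and Cxcl13 in the 6 subcutaneous groups, with group medians as lines. WT chow 1 and WT HFD 1, 2 and 4 (open triangles) hold 0.127 to 0.332 CPM of Cxcr5, against 12.3 to 24.0 CPM in the other WT HFD libraries.

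On chow, loss of Inhbe was not followed by a called member in either depot. The member median was still below that of all genes, at -0.27 against -0.02 in subcutaneous and -0.32 against -0.02 in epididymal fat. In subcutaneous fat 36 of 46 members had a negative difference, and in epididymal fat 35 of 43. The share of all genes with an unadjusted p under 0.05 is not given here. In KO over WT subcutaneous fat edgeR's quasi-likelihood test called none of 46 (0.253% of all genes called, 0.134% higher and 0.12% lower), 9 had an unadjusted p under 0.05, and DESeq2 called Cxcl10 and Ccl2. Cxcl10, an interferon-induced ligand of Cxcr3, had 1.53, 1.99 and 2.33 CPM in KO and 1.15, 4.08 and 14.1 CPM in WT fat (-1.45 ± 0.39, adjusted p = 0.123). Ccl2 had 0.557, 1.54 and 4.04 CPM in KO and 0.752, 1.81 and 45.6 CPM in WT fat (-2.29 ± 0.69, adjusted p = 0.233), and Ccl7 stood at -2.13 ± 0.71. Without WT chow subcutaneous 6 and 7 both turned, to 0.12 ± 0.40 for Ccl2 and 0.30 ± 0.44 for Ccl7. In epididymal fat none of 43 was called (0.658% of all genes called, 0.173% higher and 0.485% lower), 10 had an unadjusted p under 0.05, and DESeq2 called none. The lowest p-values were those of Ccr3 (-1.44 ± 0.46, adjusted p = 0.246), Cxcl2 (-1.38 ± 0.48, adjusted p = 0.346) and Ackr1 (-0.54 ± 0.21, adjusted p = 0.475). No pathway gene was called in either depot on chow.

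In subcutaneous fat, 7 of 46 tested members were higher in mInhbe than in GFP mice and none was lower (of all genes 27.2% were called, 15.8% higher and 11.4% lower). The share of members called higher was near that of all genes. Cxcl13 had 50.4, 109 and 157 CPM in mInhbe and 45.6, 66.9 and 100 CPM in GFP fat, and 9 of 10 mInhbe libraries were above the GFP mean (0.58 ± 0.16, adjusted p = 0.0106). Ccr2 had 17.8, 37.6 and 63.5 CPM in mInhbe and 8.82, 22.4 and 39.5 CPM in GFP fat (0.80 ± 0.23, adjusted p = 0.013). Ackr4 had 2.94, 4.42 and 6.43 CPM in mInhbe and 1.69, 2.56 and 4.24 CPM in GFP fat (0.59 ± 0.17, adjusted p = 0.0141). The gut homing receptor Ccr9 rose by 0.57 ± 0.18, and the dendritic cell receptor Xcr1, Cxcr6 and Cxcr2 by 0.59, 0.55 and 0.72. All 7 had overlapping groups, and Cxcr2 and Cxcr6 were not called without the libraries that stood apart. Ccl2, at 1.30, 2.42 and 30.9 CPM in mInhbe and 0.556, 1.63 and 27.2 CPM in GFP fat, did not pass (0.47 ± 0.70, adjusted p = 0.64).

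The 16 lymph node genes summed to 1027 to 2129 CPM in mInhbe and 727 to 1638 CPM in GFP subcutaneous fat, 3 of 16 were called higher with a median log2 difference of 0.16, and their score differed by 0.377 on the log2 scale (2-sided exact permutation p = 0.0132, 0.0754 after adjustment over 10 comparisons), which did not pass after adjustment. With that score as a covariate no member was called, and Ccr2 stood at 0.50 ± 0.25 and Ackr4 at 0.56 ± 0.21. Of the pathway genes 7 rose, led by the kinase Jak2 (0.64 ± 0.14), Dpp4 (0.68 ± 0.16) and the leukocyte kinase Pik3cg (0.57 ± 0.14).

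In epididymal fat of the mInhbe and GFP groups Ackr4 was the only called member of 40 (of all genes 1.16% were called, 0.761% higher and 0.404% lower). It had 16.8, 21.7 and 53.3 CPM in mInhbe and 6.74, 14.3 and 20.5 CPM in GFP fat, and all 10 mInhbe libraries were above the GFP mean (0.88 ± 0.21, adjusted p = 0.0342). The groups overlapped. Without GFP epididymal 7 and 8 Ackr4 was at 0.84 ± 0.21 and just missed the threshold (adjusted p = 0.0571). Ackr4 lies within the span of Acad11, whose reads may be shared with it, and Acad11 had medians of 156 CPM in mInhbe and 159 CPM in GFP fat. Ccl2 had 3.75, 6.78 and 22.0 CPM in mInhbe and 1.94, 3.26 and 10.9 CPM in GFP fat, and was not called with all libraries (1.08 ± 0.34, adjusted p = 0.178) but was without GFP epididymal 7 and 8 (1.46 ± 0.32, adjusted p = 0.0234). The macrophage genes summed to 614 to 1070 CPM in mInhbe and 624 to 1245 CPM in GFP fat, with none called.

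The depots differed in most members. In GFP mice 10 of 48 tested members were higher in epididymal than in subcutaneous fat and 26 lower (of all genes 64.5% were called, 35.8% higher and 28.7% lower), and in WT chow mice 7 of 50 were higher and 29 lower (43.1% called, 24.5% higher and 18.7% lower). The 2 comparisons share no library, and 24 members were lower in epididymal fat in both, which is 24 of 26 and 24 of 29. The overlap over all genes is not given here, so the shared direction is not read as particular to the members. All 10 receptors of lymphocyte homing were lower in epididymal fat in GFP, WT chow and KO HFD mice and 8 of 10 in WT HFD mice. Ccr7, which brings dendritic cells and T cells into lymph nodes, had 0.512, 1.12 and 6.02 CPM in epididymal and 37.8, 53.5 and 85.7 CPM in subcutaneous fat of GFP mice (-5.33 ± 0.32, adjusted p = 1.49e-17). Ccl5, a T cell product, had 1.02, 1.62 and 4.63 CPM in epididymal and 27.4, 39.4 and 66.6 CPM in subcutaneous fat (-4.58 ± 0.25, adjusted p = 6.27e-19). Ccl19, the other Ccr7 ligand, was at -3.59 ± 0.21, and the dendritic cell product Ccl22 at -3.93 ± 0.24. None of these overlapped between depots.

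All 16 lymph node genes were lower in epididymal fat in these comparisons, with sums of 9.57 to 120 CPM in epididymal and 727 to 1638 CPM in subcutaneous fat of GFP mice, none at 0 in either, and their part in the member differences was not tested. In WT chow mice the lowest p-values among the lower members were those of Ccl22 (-3.99 ± 0.42), Cxcr2 (-5.01 ± 0.59), Ccl5 (-4.41 ± 0.52) and Ackr1 (-1.61 ± 0.19). There subcutaneous library 1, without lymph node transcripts, overlapped the epididymal range for Ccr7 and Ccl5. Of the pathway genes 29 were lower and 3 higher in GFP mice, and 25 were lower in WT chow mice. The leukocyte genes Was, at -2.43 ± 0.12 in GFP and -1.89 ± 0.23 in WT chow mice, and Pik3cd, at -2.95 ± 0.15 and -2.25 ± 0.27, were among the 3 lowest p-values in both.

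The members higher in epididymal fat were fewer and of another kind. Ccl28 had 7.75, 10.0 and 23.0 CPM in epididymal and 0.112, 0.349 and 0.699 CPM in subcutaneous fat of GFP mice, without overlap (4.83 ± 0.40), and was higher by 5.39 ± 0.78 in WT chow mice. Ackr4 had 6.74, 14.3 and 20.5 CPM in epididymal and 1.69, 2.56 and 4.24 CPM in subcutaneous fat of GFP mice (2.21 ± 0.20). Cx3cl1 was higher by 1.40 ± 0.19, Ccl21c by 0.96 ± 0.16 and, in WT chow mice, Ccl24 by 0.87 ± 0.23. Ccl21a, the related gene, went the other way in GFP mice, with means of 63.1 CPM in epididymal and 237 CPM in subcutaneous fat. Over all 4 depot comparisons 14 members were lower in epididymal fat and 3 were higher, namely Ccl28, Ccl21c and Ccl21d. How many of all genes kept a direction in all 4 is not given here. In WT HFD mice Ccl21c and Ccl21d, and of the lower members Ackr1 (-0.45 ± 0.26) and Cxcl14 (-0.37 ± 0.44), were not called without the libraries that stood apart. Without WT chow subcutaneous 6 and 7, 14 members were higher and 24 lower in epididymal fat of WT chow mice, and Ccl2 (1.29 ± 0.35) and Ccr2 (0.77 ± 0.25) were among the higher ones, against -1.14 ± 0.49 and -0.07 ± 0.29 with all libraries.

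On HFD the members higher in epididymal fat included inflammatory ones. In WT HFD mice 12 of 50 were higher and 18 lower in epididymal fat (of all genes 40.8% were called, 21.8% higher and 18.9% lower), and in KO HFD mice 10 were higher and 19 lower (41.8% called, 22.5% higher and 19.3% lower). Ccl9 was higher by 1.87 ± 0.33 in WT HFD and 1.50 ± 0.31 in KO HFD mice, Ccl6 by 1.27 ± 0.28 in KO HFD, and Ccr3 by 2.49 ± 0.45 and Ccl3 by 2.68 ± 0.53 in WT HFD mice. The lowest p-values among the lower members were those of Ccr4 (-3.21 ± 0.53), Cxcr2, Cxcl9 (-1.18 ± 0.21) and Ccl22 in WT HFD, and of Ccl22 (-3.00 ± 0.41), Cxcr2, Xcr1 (-2.02 ± 0.33) and Ccr9 in KO HFD mice. Of the pathway genes 15 were higher and 4 lower in WT HFD mice, led by Adcy7 (1.70 ± 0.19), Rgs1 and Pik3r5, and 3 were higher and 14 lower in KO HFD mice, Plcb2 (-1.67 ± 0.33) and Rac2 (-1.63 ± 0.34) among the lower ones.

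The difference between depots in a response was tested as an interaction, epididymal minus subcutaneous. For HFD in WT mice 23 of 50 members had a more positive and 2 a more negative response in epididymal fat (of all genes 33.3% were called, 16.1% positive and 17.3% negative), with a member median of 1.15 against -0.07. Cxcl16 (2.23 ± 0.33, adjusted p = 3.18e-07), Ccl3 (4.89 ± 0.74) and Cx3cr1 (2.24 ± 0.47) were among the positive ones, and Ccl24 (-2.09 ± 0.34) and Ackr3 (-0.64 ± 0.25) were the 2 negative ones. Without WT chow subcutaneous 6 and 7, 11 stayed positive, with Cxcl16 at 1.93 ± 0.32 and Ccl3 at 2.77 ± 0.55. Ccl2 was not among them, at 2.33 with all libraries and -0.08 ± 0.44 without the pair. TMM scaling placed these interactions 0.14 below plain CPM ratios.

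For KO over WT on HFD, 2 members had a more positive and 2 a more negative difference in epididymal fat (of all genes 14.6% were called, 7.76% positive and 6.87% negative). They were Cxcl9 (0.90 ± 0.29, adjusted p = 0.0312) and Ccl24 (0.99 ± 0.34), and Cx3cr1 (-1.70 ± 0.47, adjusted p = 0.0113) and Xcr1 (-1.60 ± 0.46). Without the libraries that stood apart, a fit that kept WT HFD epididymal 4 and 5, Cxcl9 and Cx3cr1 remained. Without WT HFD epididymal 4 and 5, Ccl24 was lost and 3 members remained. For mInhbe over GFP, none was more positive and 2 were more negative (13.5% of all genes called, 4.09% positive and 9.41% negative), Cxcr5 (-1.76 ± 0.54, adjusted p = 0.0284) and Xcr1 (-0.91 ± 0.31, adjusted p = 0.0448). Neither was called without the libraries that stood apart, where Cxcr5, the B cell receptor for Cxcl13, was at -0.73 ± 0.40. It had 0.00, 0.237 and 0.539 CPM in mInhbe and 0.0569, 0.424 and 3.82 CPM in GFP epididymal fat, levels around the floor of 3 counts.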

How the data were processed

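The deposited tables hold estimated counts per gene, which the authors made from mRNA-seq of each fat sample (mm10, per the submitters' processing notes), and 2.94% of the values were not whole numbers (tolerance 1e-06). For the aligner, the counter and any use of strand or molecular identifiers: not given in the sources used here. The counts were rounded, and CPM are the deposited estimated counts divided by the library total. Of 24475 gene IDs 24375 had a symbol. Each experiment was fitted per depot, and over both depots for depot comparisons without a term for the animal, with edgeR 4.0.16 (R 4.3.3): genes filtered by filterByExpr (minimum count 10, total 15), TMM scaling, a robust quasi-likelihood test and Benjamini-Hochberg adjustment over all genes, called below 0.05. The design had assumed counts. SE is the log2 difference divided by the square root of F. Exon lengths came from GENCODE for 61 of 63 members. The fits were tested on simulated data. Replicates are separate libraries by label, and nothing else ties them to separate animals, so p-values measure the spread between libraries. The floor of 3 counts covers counting error only.

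Members and lists were chosen with earlier results of these data known. Named members are, per comparison, up to 4 called in each direction with the smallest p and a mean of at least 1 CPM, or up to 3 with the smallest p where none was called, with Ccl2, Ccr2, Cxcl12, Cxcl13, Cxcl14, Ccl11 and Ackr1 where they bear on the account, and up to 3 called pathway genes. Others were named after their values were seen, and some results are not reported here. Alternatives were DESeq2 1.42.0, DESeq2-style (RLE) scaling, no low-count filter, a replicate block, lymph node or epididymis scores as covariates, and left-out libraries. Leaving out WT chow subcutaneous 6 and 7, WT HFD epididymal 4 and 5, or mInhbe subcutaneous 2 with GFP subcutaneous 3 was chosen after seeing the data.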

Additional observations from a re-analysis of the deposited data

Results flagged for a closer look

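In groups of 7 to 10 libraries, the lowest and highest libraries of selected members were set against the rest by Dixon's test, which picks out about 1 in 20 groups by chance, and 14 of 108 groups were picked out. Ccl2 had 27.2 CPM in GFP subcutaneous 3 (others 0.556 to 3.51) and 10.9 CPM in GFP epididymal 8 (1.94 to 4.48). Ccr2 had 28.4 CPM in WT HFD epididymal 3 (56.1 to 81.7). Cxcl13 had 50.4 CPM in mInhbe subcutaneous 4 (86.6 to 157), 5.48 CPM in WT chow subcutaneous 1 (46.6 to 107), 13.2 CPM in GFP epididymal 8 (1.73 to 4.72) and 22.6 CPM in KO HFD epididymal 1 (2.92 to 6.99). Cxcl14 had 11.8 CPM in mInhbe epididymal 10 (20.7 to 35.1) and 4.09 CPM in GFP epididymal 7 (14.6 to 25.8), where Ccl11 had 66.4 CPM (30.7 to 43.8). Ackr1 had 9.16 CPM in mInhbe epididymal 9 (1.94 to 4.56) and 1.19 CPM in KO chow epididymal 5 (2.09 to 2.63). Ccl9 had 209 CPM in mInhbe subcutaneous 2 (41.2 to 95.7). Ackr4 had 0.858 CPM in KO HFD subcutaneous 8 (1.48 to 1.97).

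Several responses differed between groups by an interaction test (edgeR's quasi-likelihood test, adjusted over all genes). The HFD response in epididymal fat, KO minus WT, differed on the log2 scale by -1.04 for Ccr2, -1.34 for Cx3cr1, -0.65 for Cxcl16, -1.01 for Ccl9, -1.62 for Cxcl14, -1.16 for Ccl2 and -0.87 for Ccr1. The mInhbe response, epididymal minus subcutaneous, differed by -1.76 for Cxcr5 and -0.91 for Xcr1. The KO over WT difference on HFD, epididymal minus subcutaneous, differed by -1.70 for Cx3cr1, -1.60 for Xcr1, 0.90 for Cxcl9 and 0.99 for Ccl24. Without WT HFD epididymal 4 and 5, Cxcl16, Ccl9, Cxcl14, Ccl2 and Ccr1 were no longer called for the diet response. Without the libraries that stood apart, Cxcr5 and Xcr1 were not called for mInhbe, nor Xcr1 and Ccl24 for KO over WT.

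The HFD response in WT mice, epididymal minus subcutaneous, differed for 25 members. Among macrophage ligands and monocyte attractants the values were 4.89 for Ccl3, 4.01 for Ccl4, 1.62 for Ccl9, 2.30 for Ccl5, 2.33 for Ccl2, 2.41 for Ccl7 and 2.00 for Ccl8. Other ligands gave 2.23 for Cxcl16, 3.77 for Cxcl2, 0.52 for Cxcl12, 1.78 for Ccl22, 1.57 for Cxcl14, 1.87 for Xcl1, 1.48 for Cxcl10 and -2.09 for Ccl24. Receptors gave 2.24 for Cx3cr1, 1.89 for Cxcr4, 1.48 for Xcr1, 1.49 for Cxcr3, 2.28 for Ccr7, 1.72 for Ccr3, 1.90 for Ccr9, 0.80 for Ackr1 and -0.64 for Ackr3. Without WT chow subcutaneous 6 and 7, 13 of the 25 stayed called.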

How the results depend on the processing

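Of the single-gene results recomputed under the alternatives, 827 kept their direction and their side of the threshold, 44 lost the threshold, 13 gained it and 10 reversed, and of the counts of called members 129 stayed within 1.5 times and 16 did not. With the lymph node score added to the fit, the count of called members was 0 for mInhbe over GFP in subcutaneous fat, 10 for KO over WT on HFD and 6 for HFD in WT. Without the libraries that stood apart it was 3 for KO over WT on chow and 14 for HFD in KO in subcutaneous fat, and 0 for the mInhbe and 2 for the KO on HFD depot interaction. Without WT chow subcutaneous 6 and 7 it was 9 for KO over WT on HFD in subcutaneous fat and 13 for the HFD depot interaction, and without WT HFD epididymal 4 and 5 it was 3 for the epididymal genotype by diet interaction. DESeq2 gave 2 for KO over WT on chow in subcutaneous fat and 5 for the mInhbe depot interaction. Without the low-count filter the counts were 17 for HFD in WT subcutaneous fat and 1 for the mInhbe depot interaction. The cause was not tested.

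Without WT chow subcutaneous 6 and 7, reversals were Ccl2 (0.12) and Ccl7 (0.30) for KO over WT on chow, Ccr2 (0.42) for HFD in WT, Ccl2 (1.29) and Ccr2 (0.77) for epididymal over subcutaneous fat in WT chow mice, and Ccl2 (-0.077) for the HFD depot interaction. Cxcl14 for HFD in KO epididymal fat was -0.050 with RLE scaling, -0.040 without the filter and -0.051 with DESeq2. The main fits did not pair libraries by replicate number, since in no comparison was every pair's correlation over 0.1. This rule cannot exclude that the depots came from the same mice. Between depots, same-numbered libraries had a median correlation of 0.089 in WT chow and 0.081 in KO HFD mice, against -0.008 and -0.022 for other pairs. The depot comparisons, fitted without a term for the animal, may therefore ignore a pairing. With the replicate block, the counts were 2 for HFD in KO subcutaneous fat and 1 for the mInhbe depot interaction, and Ccr2 in WT chow mice turned to 0.060 for epididymal over subcutaneous fat. Members below the 3-count floor, 0.149 to 0.231 CPM, could not be compared at this depth.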
